A study of Mus musculus with 6 samples.

Results

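The nuclear genes for the proteins of the mitochondrial ribosome were followed in naive CD4 T cells that carried or lacked CD4-Cre on a floxed Cmtr1 background. The members are the protein-coding genes of GENCODE vM21 whose symbol starts with Mrpl or Mrps followed by a digit. They number 78 of the 46983 genes in the files, 49 named for the large subunit and 29 for the small subunit. The 77 genes for proteins of the cytosolic ribosome (Rpl and Rps) serve as contrast.

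Libraries of total RNA depleted of ribosomal RNA came from male mice, and the cells had been sorted from lymph nodes as live TCR-beta+, CD4+, CD62L+, CD44- cells. The 4 Cmtr1 cKO libraries came from Cmtr1 fl/fl mice positive for CD4cre, and the 2 control libraries from Cmtr1 fl/fl mice negative for it, so the floxed alleles are shared by both groups and the controls carry no Cre. The Cd4 promoter fragment that drives this Cre is active from the thymus on, so recombination would precede the naive stage studied. The same driver acts in CD8 T cells too. Neither the age of the mice nor whether each library came from a separate mouse is given in the labels, and p-values therefore measure the spread between libraries, which may be technical.

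Mitochondria keep a ribosome of their own, which translates only the few messages of the mitochondrial genome, all of them for subunits of the respiratory chain and ATP synthase. Its ribosomal RNAs are transcribed inside the organelle, while each of its proteins is made from a nuclear gene, translated in the cytosol and imported. Some of these proteins descend from bacterial ribosomal proteins and others are found only in mitochondria. The mRNAs of the cytosolic ribosome begin with a 5' terminal oligopyrimidine (TOP) tract, a C followed by further pyrimidines next to the cap, and CMTR1 adds a 2'-O-methyl group to the nucleotide that follows the cap.

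Gene counts per library ran from 9513874 to 11949838. Of the uniquely mapped reads, 38.0% to 52.3% fell outside exons in Cmtr1 cKO libraries, against 37.2% and 34.0% in controls 1 and 2. Reads outside exons here are those on no exon of the counted strand, so reads on the opposite strand of an exon are included. In reads scaled to a common library size (CPM), Cmtr1 itself had 16.02, 19.8, 14.6 and 7.57 in Cmtr1 cKO 1 to 4 and 11.2 and 11.4 CPM in controls 1 and 2. The deleted exon is not named in the labels, so the whole-gene count does not check the labels, and directions below are those of the libraries as labelled. The 7 T cell markers, Cd4 and Cd3e among them, summed to 3692 to 4264 CPM in Cmtr1 cKO libraries and 3983 to 3995 CPM in controls. The 4 B cell markers summed to 14.6 to 30.02 CPM in Cmtr1 cKO libraries and 22.8 to 31.3 CPM in controls. For the 5 myeloid markers the sums were 4.47 to 7.80 CPM against 6.41 to 18.4 CPM, and for the 2 CD8 T cell markers 17.0 to 21.3 CPM against 23.6 to 28.7 CPM. The 3 NK cell markers summed to 2.01 to 3.18 CPM in Cmtr1 cKO libraries and 7.96 to 8.66 CPM in controls, with Klrd1 called lower. The 3 regulatory T cell markers, none of them called, summed to 64.0 to 92.5 CPM in Cmtr1 cKO libraries and 57.8 to 84.6 CPM in controls. For the 3 erythroid markers the sums were 0.63 to 2.31 CPM against 1.66 to 3.79 CPM. Of the 2 platelet markers Pf4 was at 0 in all 6 libraries and Ppbp reached at most 0.09 CPM. The cycling markers Mki67 and Top2a summed to 54.2 to 70.4 CPM in Cmtr1 cKO libraries, against 28.2 and 32.5 CPM in controls, and both were called higher. Of the 5 naive T cell markers Ccr7 was called lower (log2 fold change -0.36), and of the 4 activation markers Cd44, the surface marker the sort selected against, was called lower (-0.50) and Nr4a1 higher (0.60). The part of these markers in the results was not tested.

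Messenger RNAs of the mitochondrial ribosome were close to their control level as a group. Of the 77 members that could be tested, 2 were higher and 1 was lower in Cmtr1 cKO cells, against a background of 11.4% of all 12748 genes tested (4.66% higher, 6.77% lower). Calls are those with p below 0.05 in the quasi-likelihood F test of edgeR after Benjamini-Hochberg adjustment over all genes tested. The members' share called, 3.90%, was below that background. The median log2 fold change (Cmtr1 cKO over control) of the members was -0.05, with 33 above 0 and 44 below, beside a median of -0.00047 over all genes tested. At an unadjusted p under 0.05, 17 members passed, 10 higher and 7 lower, while 30.9% of all genes passed.

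The cytosolic ribosomal protein genes stood apart from the members. Of the 77 genes, 76 were lower at the same threshold, also in DESeq2, and all 77 estimates were below 0, with a median log2 fold change of -0.95. The exception, Rpl24, was at 2.03 ± 0.43 CPM in Cmtr1 cKO libraries and 2.07 ± 0.04 CPM in controls (SD, n = 4 and 2), in a list whose median control level was 893 CPM. In 77 of 77 tested mitochondrial members the 95% interval of the log2 fold change lay wholly above the cytosolic median, and in 56 it lay between -0.5 and 0.5. The lowest bound of any member was -0.77 (Mrpl52) and the highest 0.73 (Mrpl37), so a change as large as the cytosolic median was outside the interval of each tested member.

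**Figure D1:**
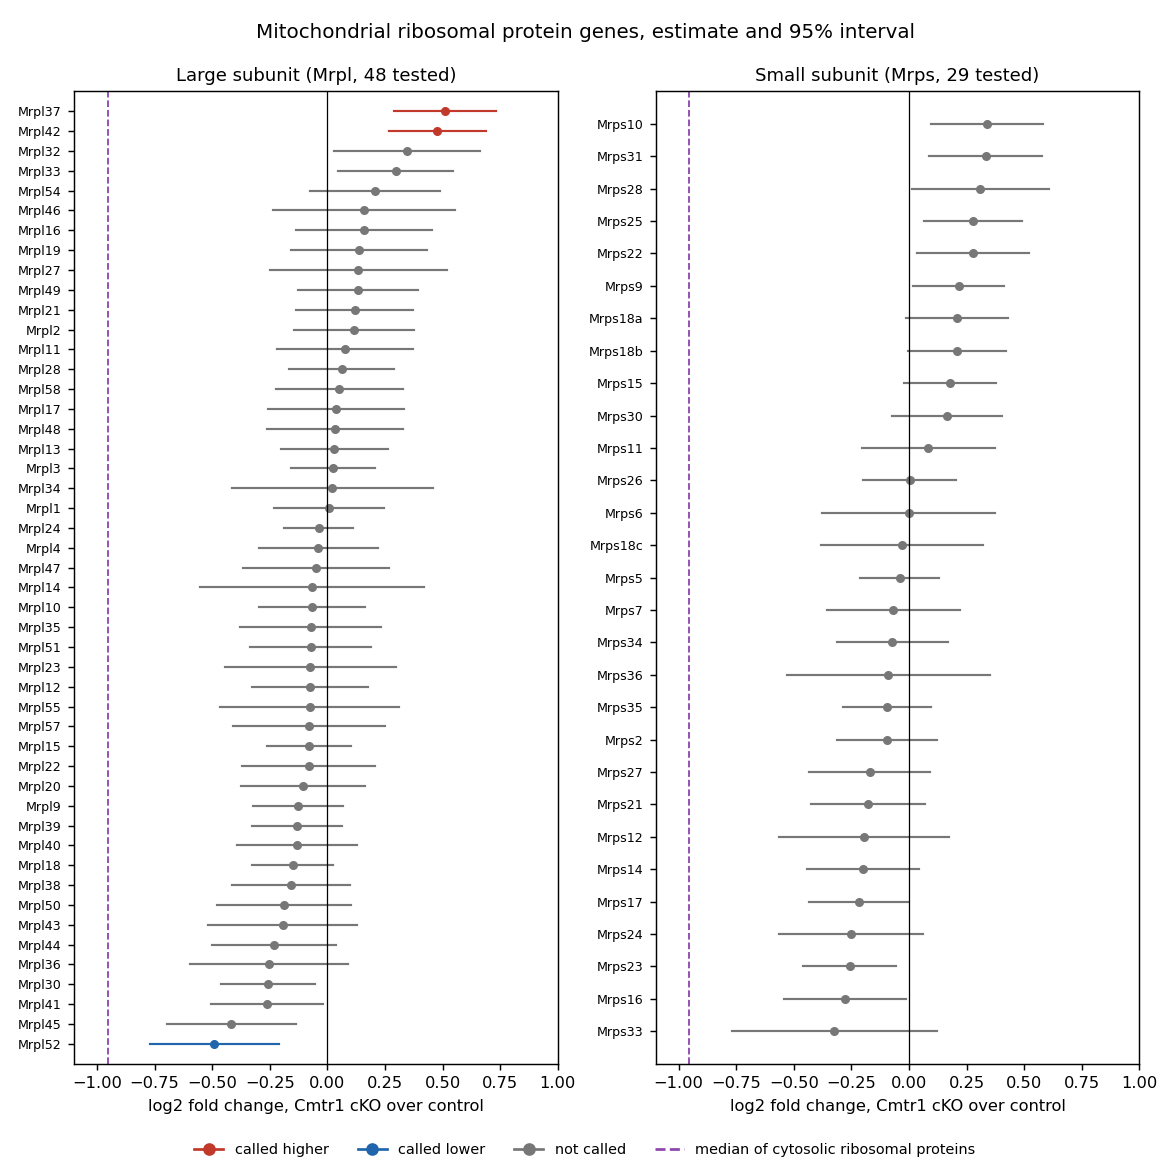
Log2 fold change (Cmtr1 cKO over control, x axis) of each of the 77 tested members, with its 95% interval from the edgeR fit, sorted within the large (left) and the small subunit (right). Red marks the 2 called higher, blue the 1 called lower, and the dashed line the cytosolic median of -0.95, which no interval reaches.

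The sums show the same contrast. The 78 mitochondrial members together had 2000, 2002, 2140 and 2262 CPM in Cmtr1 cKO 1 to 4, against 2092 and 2121 CPM in controls 1 and 2. The control values lie inside the range of the Cmtr1 cKO libraries. The cytosolic list summed to 32809, 35458, 40766 and 46484 CPM in Cmtr1 cKO 1 to 4, against 73746 and 79199 CPM in the controls, and these groups do not overlap. Cytosolic ribosomal protein reads thus exceeded mitochondrial ones 16.4 to 20.6-fold in Cmtr1 cKO libraries and 35.2 and 37.3-fold in control libraries. In bulk RNA, fewer cells of a type and less RNA per cell cannot be told apart.

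**Figure D2:**
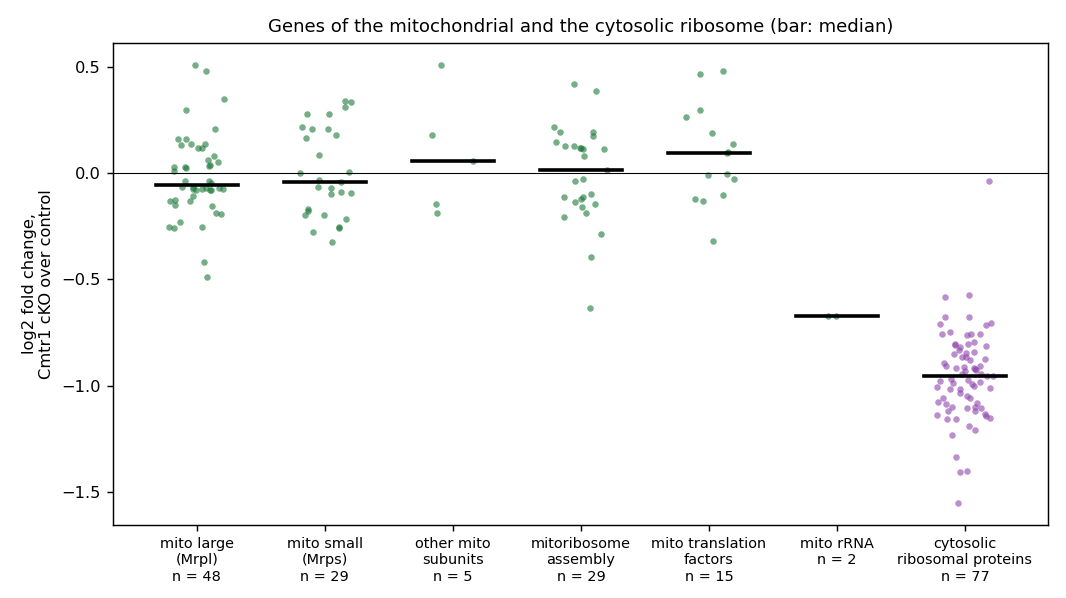
Log2 fold change (y axis) of the tested genes of 7 groups (x axis), 1 point per gene, with the median as a bar. The medians of the mitochondrial protein groups lie between -0.06 and 0.09, those of mitochondrial rRNA and cytosolic ribosomal proteins at -0.67 and -0.95.

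The large and small subunits had medians close to each other, and their difference was not tested. Of the 48 tested Mrpl genes 2 were higher and 1 lower, or 6.25%, beside 11.4% of all genes. Their median log2 fold change was -0.06, with a range of -0.49 to 0.51. Of the 29 Mrps genes 0 were called by edgeR, and DESeq2 also called 0. An unadjusted p under 0.05 was found for 9 of the 29, and for 30.9% of all genes. Their median was -0.04, with a range of -0.32 to 0.34. Other settings did call genes named for the small subunit. These were Mrps10 with no filter, Mrps10 and Mrps31 among protein-coding genes alone, Mrps30 with reads outside exons as a covariate, 7 genes with quality weights, 9 with the replicate block and 6 without Cmtr1 cKO 4. In the same order, these fits called 9.11%, 14.0%, 5.22%, 24.9%, 38.0% and 30.8% of all genes they tested. Summed CPM of the large over the small subunit gave ratios of 1.65, 1.65, 1.72 and 1.80 in Cmtr1 cKO 1 to 4, against 1.73 and 1.76 in controls 1 and 2, so the groups overlap. Mrps18a and Mrps30 carry small-subunit names but sit in the large subunit, and Mrps36 is now known as a part of the 2-oxoglutarate dehydrogenase complex. With Mrps18a (0.21) and Mrps30 (0.16) moved and Mrps36 (-0.09) left out, the medians were -0.04 for the large and -0.05 for the small subunit.

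Members with a bacterial counterpart numbered 48, all of them tested, and 0 were called by edgeR (DESeq2 also called 0 of them). With no filter Mrpl32 and Mrps10 were called, among protein-coding genes alone Mrps10, and with the covariate Mrpl19 and Mrpl32. Quality weights called 6 of these members, the replicate block 9 and the fit without Cmtr1 cKO 4 called 7. The shares of all genes called in these fits, in the same order, were 9.11%, 14.0%, 5.22%, 24.9%, 38.0% and 30.8%. Their median log2 fold change was -0.04, with values from -0.28 to 0.35. Of the 30 members found only in mitochondria 29 were tested and 3 were called, or 10.3%, near the 11.4% of all genes. Their median was -0.08 and their values ran from -0.49 to 0.51. This division was added with the values known and has no test.

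Mrpl37 (ENSMUSG00000028622.11, chromosome 4, 107055874 to 107066868, minus strand, GRCm38), which encodes a mitochondria-specific protein of the large subunit, was higher. It had 39.6, 35.6, 37.6 and 33.4 CPM in Cmtr1 cKO 1 to 4, against 26.8 and 24.5 CPM in controls 1 and 2. Each Cmtr1 cKO library lay above both controls, and the difference was 0.51 ± 0.10 on the log2 scale (SE, edgeR adjusted p = 0.0111, Benjamini-Hochberg), a 1.42-fold level. Mrpl42 (ENSMUSG00000062981.4, chromosome 10, 95480805 to 95501940, minus strand), another mitochondria-specific protein of the large subunit, had 31.5, 31.5, 33.0 and 35.3 CPM in Cmtr1 cKO 1 to 4, against 23.5 and 23.6 CPM in the controls. The groups again do not overlap, at 0.48 ± 0.10 on the log2 scale (SE, edgeR adjusted p = 0.0115, Benjamini-Hochberg), a 1.39-fold level.

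Mrpl52 (ENSMUSG00000010406.11, chromosome 14, 54426909 to 54429756, plus strand), also specific to mitochondria and part of the large subunit, was the member called lower. It had 19.1, 17.9, 24.3 and 23.0 CPM in Cmtr1 cKO 1 to 4, against 29.6 and 29.4 CPM in the controls. All Cmtr1 cKO libraries lay below both controls, and those of Cmtr1 cKO 1 and 2 lay lowest. Its log2 fold change was -0.49 ± 0.13 (SE, edgeR adjusted p = 0.0331, Benjamini-Hochberg), a level of 0.712 of the control. These 3 calls rest on both controls. With control 1 or control 2 left out edgeR called no member (8 and 9 had an unadjusted p under 0.05), in fits that called 1.95% and 1.48% of all genes, while the estimates stayed at 0.46 to 0.59 for Mrpl37, 0.49 for Mrpl42 and -0.48 for Mrpl52. Without Cmtr1 cKO 1 or 2 the call of Mrpl52 also ended (-0.44 and -0.42, edgeR adjusted p = 0.0729 and 0.0727, Benjamini-Hochberg). When the percentage of reads outside exons was a covariate, Mrpl42 stayed called (0.61), while Mrpl37 (0.35) and Mrpl52 (-0.25) did not (edgeR adjusted p = 0.109 and 0.389, Benjamini-Hochberg).

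The 9 members with the next smallest p-values did not pass. Mrpl45, which holds the ribosome to the inner membrane, had 17.6, 18.0, 20.1 and 18.8 CPM in Cmtr1 cKO 1 to 4, against 28.3 and 21.3 CPM in the controls. Control 1 set much of that difference of -0.42 ± 0.13 (log2, SE, edgeR adjusted p = 0.0556, Benjamini-Hochberg), which was -0.18 without it. Mrpl30, the counterpart of a bacterial protein of the large subunit, had 43.7, 47.8, 49.3 and 53.7 CPM in Cmtr1 cKO 1 to 4, against 55.1 and 61.2 CPM in the controls. All 4 values lay below both controls, at a log2 fold change of -0.26 (edgeR adjusted p = 0.0930, Benjamini-Hochberg).

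Mrpl33 and Mrpl32, of bacterial descent as well, leaned up. Mrpl33 had 40.2, 39.5, 34.4 and 31.1 CPM in Cmtr1 cKO 1 to 4, against 29.2 and 29.9 CPM in the controls. Mrpl32, whose protein is cleaved by the m-AAA protease before it joins the ribosome, had 25.4, 28.02, 32.8 and 37.4 CPM in Cmtr1 cKO 1 to 4, against 25.2 and 23.4 CPM in the controls. Both had all Cmtr1 cKO libraries above the controls, yet Cmtr1 cKO 4 was the lowest of the 4 for Mrpl33 and the highest for Mrpl32. Their log2 fold changes of 0.30 and 0.35 had edgeR adjusted p = 0.110 and 0.132 (Benjamini-Hochberg). With reads outside exons in the fit Mrpl33 had 0.0079 and Mrpl32 0.71, while Mrpl30 had -0.05.

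**Figure D3:**
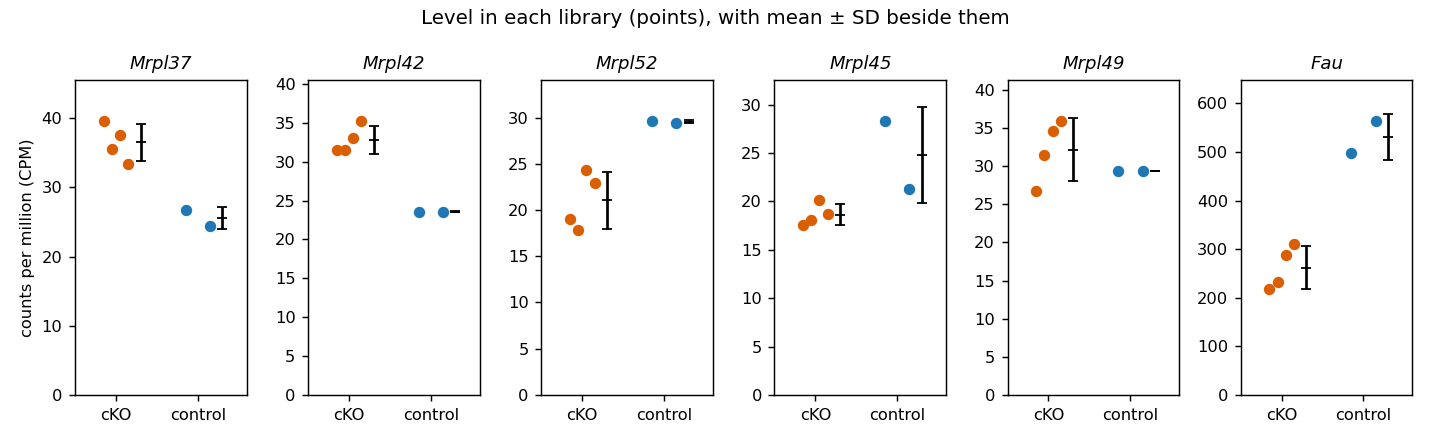
CPM (y axis, from 0, scaled for each gene) in the 4 Cmtr1 cKO libraries (orange) and the 2 control libraries (blue) for 5 members and Fau, with mean ± SD to the right of the points. The groups do not overlap for Mrpl37, Mrpl42, Mrpl52, Mrpl45 and Fau, and they overlap for Mrpl49.

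Among small-subunit genes, Mrps10, whose protein has a bacterial counterpart in the head of the subunit, had 44.7, 41.1, 38.9 and 34.0 CPM in Cmtr1 cKO 1 to 4, against 30.95 and 31.8 CPM in the controls. Mrps31, a mitochondria-specific protein, had 19.3, 19.9, 21.6 and 21.8 CPM against 16.6 and 16.1 CPM. Mrps25, also mitochondria-specific, had 37.8, 38.5, 38.1 and 36.1 CPM against 33.8 and 28.1 CPM. In all 3 genes every Cmtr1 cKO library lay above both controls, with log2 fold changes of 0.34, 0.33 and 0.28 and edgeR adjusted p of 0.0683, 0.0742 and 0.0818 (Benjamini-Hochberg). With reads outside exons in the fit they were 0.067, 0.46 and 0.18, none of them called.

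Mrps22, a mitochondria-specific protein of the same subunit, had 21.1, 21.3, 22.2 and 24.3 CPM in Cmtr1 cKO 1 to 4, against 17.7 and 19.1 CPM in the controls, a log2 fold change of 0.28 (edgeR adjusted p = 0.121, Benjamini-Hochberg). Mrps23 leaned the other way, with 34.3, 36.4, 38.4 and 40.3 CPM in Cmtr1 cKO 1 to 4 against 46.7 and 42.6 CPM in the controls. Its log2 fold change was -0.26 (edgeR adjusted p = 0.0866, Benjamini-Hochberg). With the covariate Mrps22 had 0.45 and Mrps23 -0.13, neither called. Proteins of 1 subunit thus had estimates on both sides of 0 with groups that do not overlap. Of the 77 tested members, all 4 Cmtr1 cKO libraries were above both controls in 12 and below both in 10. Among all genes tested the shares were 18.2% above and 20.8% below, so neither count exceeds its background share.

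The 5 lowest log2 fold changes of each subunit also include Mrpl41 (-0.26), Mrpl36 (-0.25), Mrps33 (-0.32), Mrps16 (-0.28), Mrps24 (-0.25) and Mrps17 (-0.22), and the 5 highest also include Mrps28 (0.31) and Mrpl54 (0.21). None of these 8 was called by edgeR. Mrps24 shares 15.4% of its exon bases with Urgcp on the same strand, where reads that fall on both genes enter neither count.

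Levels per length differed among members. On the scale of CPM per kilobase of annotated exon (RPKM), the tested members had a control median of 9.85 and ran from 2.72 to 43.3. Mrpl24, the counterpart of a bacterial protein near the exit tunnel, led with 42.2 RPKM in Cmtr1 cKO cells and 43.3 in controls. Its libraries read 98.6, 95.2, 95.004 and 91.7 CPM in Cmtr1 cKO 1 to 4, against 94.95 and 100.3 CPM in the controls, and it is the member with the smallest standard error (0.07 around a log2 fold change of -0.04). In controls the next of the large subunit were Mrpl18 (26.5 RPKM in Cmtr1 cKO cells, 29.4 in controls) and Mrpl41 (23.9 and 28.7 RPKM). In the small subunit Mrps21 (29.3 RPKM in Cmtr1 cKO cells, 33.2 in controls), Mrps23 (24.0 and 28.6 RPKM) and Mrps15 (23.6 and 20.9 RPKM) were highest. The order of the large subunit was not the same in Cmtr1 cKO cells, where Mrpl54 (32.6 RPKM) stood above Mrpl18. Mrpl18, Mrpl41 and the 3 small-subunit genes named here differed between the groups by at most 0.26 on the log2 scale, and none was called.

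Lowest by their control level were Mrpl17 and Mrpl48, at 2.81 and 2.78 RPKM in Cmtr1 cKO cells and 2.74 and 2.72 RPKM in controls, and in the small subunit Mrps10, Mrps36 and Mrps22, at 4.91, 3.95 and 5.57 RPKM in Cmtr1 cKO cells and 3.88, 4.21 and 4.61 RPKM in controls. In Cmtr1 cKO cells Mrpl23 (2.65 RPKM) was below Mrpl17 and Mrpl48. Mrps35 (4.36), Mrps33 (4.52), Mrps6 (5.07) and Mrps30 (5.34) were below Mrps22 there. Exon length here is that of all annotated transcripts joined, up to 8631 bases, so a long rare transcript lowers the value of its gene. Mrpl53 (chromosome 6, 83109040 to 83109939) had 0 counts in all 6 libraries, which allows up to 3 counts in each. Of its exon bases 88.0% are shared on the same strand with Gm42688, so its level cannot be read from these counts, and it is the member that was not tested.

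The members' level also differed among the Cmtr1 cKO libraries. The median of log2(CPM + 1) over the tested members, relative to the mean of the controls, was -0.10, -0.14, -0.0032 and 0.09 in Cmtr1 cKO 1 to 4, and it was -0.02 and 0.02 in controls 1 and 2. Of the 77 members 24, 28, 38 and 53 were above the control mean in Cmtr1 cKO 1 to 4. In 53 of the 77 Cmtr1 cKO 4 was the highest of the 4 Cmtr1 cKO libraries and in 8 the lowest. Neither count was made over all genes tested, whose medians were -0.0081, 0.0010, -0.00048 and -0.0065 in Cmtr1 cKO 1 to 4. A rise was not particular to the members. The 7 T cell markers had -0.17, -0.04, -0.02 and 0.15, and the 5 naive T cell markers -0.22, -0.21, -0.10 and 0.09. The 15 mitochondrial translation factors described below did not rise (0.09, 0.06, 0.09 and 0.09). The large subunit spread further (-0.13, -0.17, -0.01 and 0.10) than the small subunit (-0.07, -0.10, -0.0032 and 0.04). Reads outside exons made up 52.3% and 51.6% in Cmtr1 cKO 1 and 2, which had the lowest medians, 46.7% in Cmtr1 cKO 3 and 38.0% in Cmtr1 cKO 4, which had the highest. Cmtr1 cKO 3 had 1707028 counts on the opposite strand, against 490432 to 551462 in the other libraries. Such reads are part of its 46.7%, and their effect on the covariate was not tested. The same medians for the cytosolic list were -1.20, -1.06, -0.88 and -0.68, below both controls in all 4 libraries.

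With that percentage in the fit, the members' median log2 fold change moved to 0.15, with 6 called higher (Mrpl19, Mrpl32, Mrpl42, Mrpl46, Mrpl54 and Mrps30) and 0 lower by edgeR (23 members had an unadjusted p under 0.05 in either direction), while 73 of the 77 cytosolic genes were called lower and their median was -0.60. This fit called 5.22% of all genes and 7.79% of the members, so the members' share was above the background here and below it without the covariate. The covariate differs between the groups, so this fit and the genotype share information.

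**Figure D4:**
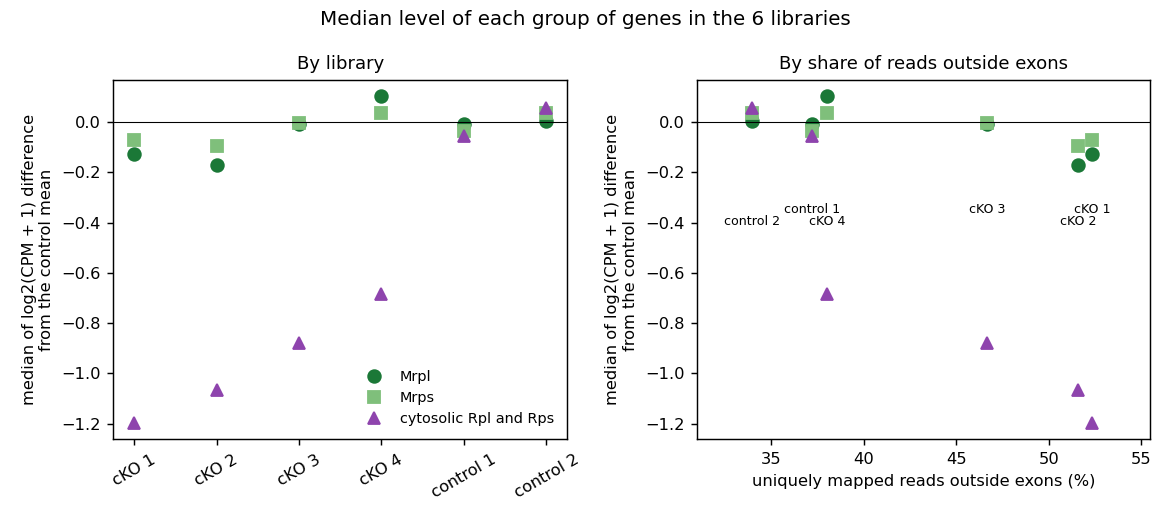
Median over the tested genes of the difference in log2(CPM + 1) from the control mean (y axis) for Mrpl, Mrps and cytosolic genes, by library (left) and by the percentage of uniquely mapped reads outside exons (right). Mitochondrial medians stay between -0.17 and 0.10 in Cmtr1 cKO libraries, cytosolic ones between -1.20 and -0.68, and both are lowest in Cmtr1 cKO 1 and 2.

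The genes with the most similar profile over the 6 libraries were sought among 10367 tested protein-coding genes outside both ribosomes. BC147527 (Pearson r = 0.994 with the members' median profile of log2(CPM + 0.5)), Cnbp (0.992), Ccdc32 (0.989), Irf2 (0.987) and Mmgt1 (0.986) came closest. They are named as a description, since only 6 libraries were compared. Cnbp, a nucleic acid binding protein, had 342, 330.5, 379 and 428 CPM in Cmtr1 cKO 1 to 4, against 375 and 387 CPM in the controls.

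Length of the annotated exons went with the estimates to a small degree. Over the 77 tested members Pearson r between log2 exon length and log2 fold change was 0.30, against 0.14 over 10521 tested protein-coding genes, given without a test because the genes share libraries. The 26 members with the shortest exons (607 to 1667 bases) had a median log2 fold change of -0.09, with 7 above 0. The 783 other protein-coding genes of that length or shorter had a median of -0.12. The 25 of middle length (1693 to 3291 bases) had -0.07, as did the 2395 other genes. The 26 longest (3332 to 8631 bases) had 0.03, with 18 above 0, and the 7189 other genes longer than 3291 bases had 0.0033. GC content of the main transcript had r = -0.03 with the estimates, and log2 control RPKM had r = -0.34. Control RPKM shares the control counts with the estimates and contains exon length, so this last r is not a separate property.

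**Figure D5:**
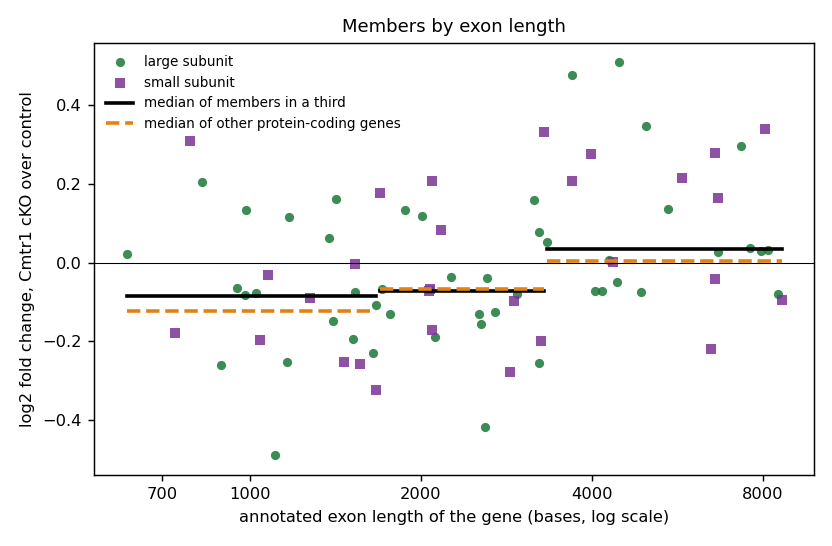
Log2 fold change (y axis) of the 77 tested members against annotated exon length in bases (x axis, log scale), circles for the large and squares for the small subunit. Solid bars are medians of 26, 25 and 26 members by length (-0.09, -0.07 and 0.03). Dashed bars are medians of other protein-coding genes, whose shortest and longest classes also hold genes beyond the members' lengths.

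The starts of these genes were read next, because the TOP tract is what cytosolic ribosomal protein mRNAs share. RefSeq promoter windows on GRCm38.p6, 250 bases before to 50 after the annotated start, matched 69 of the 78 members and 57 of the 77 cytosolic genes. A C at the annotated start followed by 4 pyrimidines was found in 0 of the 69 members, in 13 of the 57 cytosolic genes (22.8%) and in 3.01% of the 27025 genes of the table. These 13 had log2 fold changes of -1.34 to -0.71, inside the range of the whole cytosolic list (-1.55 to -0.04). Whether the tract goes with the change was not tested. An unbroken run of at least 8 pyrimidines between 10 bases before and 16 bases into the transcript was found in 5 members (7.25%), in 23 cytosolic genes (40.4%) and in 11.4% of the table. Annotated starts can miss the starts used in these cells by several bases, so these are counts of letters at annotated positions.

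Windows of 70 bases are shown for the 3 members called, for Ptcd3 (described below) and for Rpl15, the gene of the cytosolic list with the longest tract at its annotated start. In each the start is base 41, and capitals mark matches to the motifs named in the next paragraph or, for Rpl15, the pyrimidine run.
Mrpl37: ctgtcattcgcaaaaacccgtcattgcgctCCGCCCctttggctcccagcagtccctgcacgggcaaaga
Mrpl42: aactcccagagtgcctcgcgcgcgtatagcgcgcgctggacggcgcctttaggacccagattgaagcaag
Mrpl52: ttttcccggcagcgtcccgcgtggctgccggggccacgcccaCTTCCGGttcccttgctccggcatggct
Ptcd3: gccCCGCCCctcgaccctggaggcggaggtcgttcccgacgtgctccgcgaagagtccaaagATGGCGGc
Rpl15: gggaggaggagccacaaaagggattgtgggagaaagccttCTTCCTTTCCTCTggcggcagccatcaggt
On GRCm38.p6 they lie at chr4:107066837-107066906 (minus strand), chr10:95501920-95501989 (minus), chr14:54426869-54426938 (plus), chr6:71908733-71908802 (minus) and chr14:18270957-18271026 (minus). Rpl15 opens with 13 pyrimidines. It had 176, 193, 210.4 and 232 CPM in Cmtr1 cKO 1 to 4, against 344 and 378 CPM in the controls, with -0.83 ± 0.10 on the log2 scale (SE, edgeR adjusted p = 0.00063, Benjamini-Hochberg).

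The 300-base windows were searched on both strands for the letters CCGGAAG (bound by ETS factors), GCATGCGC (NRF1), ATGGCGG (YY1) and GGGCGG (SP1), none of which contains another, although the YY1 and SP1 letters end alike. The capitals in Mrpl37 and Mrpl52 and the first capitals in Ptcd3 are matches on the other strand. CCGGAAG was in 37.7% of the 69 members, 42.1% of cytosolic genes, 22.7% of tested protein-coding genes and 9.93% of the table. GCATGCGC was in 11.6% of members, 5.26% of cytosolic genes, 6.70% of tested protein-coding genes and 3.05% of the table. ATGGCGG was in 18.8%, 15.8%, 10.5% and 4.69% of the same sets. GGGCGG was in 49.3% of members and 61.4% of cytosolic genes, both below the 69.8% of tested protein-coding genes, and in 38.2% of the table. Members with CCGGAAG had a median log2 fold change of -0.03 and those without it -0.07 (25 and 43 tested), and the medians with and without ATGGCGG were both -0.06 (12 and 56 tested). A match is a run of letters and not a bound site.

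A pair of neighbours sets the 2 kinds of ribosomal gene side by side. Mrpl49, of the large mitochondrial subunit, and Fau, which encodes ribosomal protein S30 of the cytosolic small subunit fused to a ubiquitin-like protein, are transcribed away from each other on chromosome 19. Their RefSeq starts are 192 bases apart, and GENCODE vM21 places the outermost annotated starts 59 bases apart. The region between them, chr19:6057726-6057976 of GRCm38.p6 on the plus strand, runs from 30 bases into Mrpl49 to 30 bases into Fau, with the start base of Mrpl49 (read on the other strand) and the 13 pyrimidines that open Fau in capitals.
Fau and Mrpl49: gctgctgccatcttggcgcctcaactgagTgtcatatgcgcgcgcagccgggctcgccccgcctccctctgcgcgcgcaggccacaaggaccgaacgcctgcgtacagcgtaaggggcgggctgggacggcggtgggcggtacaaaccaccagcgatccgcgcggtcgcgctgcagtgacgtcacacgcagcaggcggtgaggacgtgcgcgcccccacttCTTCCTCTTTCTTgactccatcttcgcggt
Mrpl49 had 26.8, 31.5, 34.6 and 35.96 CPM in Cmtr1 cKO 1 to 4, against 29.4 and 29.3 CPM in controls 1 and 2. The groups overlap, and the log2 fold change was 0.13 with a 95% interval of -0.13 to 0.39. Fau had 219, 232, 288 and 310.2 CPM in Cmtr1 cKO 1 to 4, against 497 and 564 CPM in the controls. Each Cmtr1 cKO library was below both controls, at a log2 fold change of -1.02 with an interval of -1.30 to -0.73 (edgeR adjusted p = 0.00112, Benjamini-Hochberg). With reads outside exons in the fit it was -0.63 and stayed called. This pair was chosen after its values were seen.

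Of the 78 members 23 start within 1000 bases of, or overlap by up to 200 bases, the start of a protein-coding gene on the other strand. Of the 21 partners tested 2 were called, or 9.52%, near the 11.4% of all genes. Besides Fau this was Sars2, the mitochondrial seryl-tRNA synthetase, which lies 172 bases from Mrps12. Sars2 was higher at 18.3 ± 2.65 CPM in Cmtr1 cKO libraries and 12.04 ± 0.28 CPM in controls (SD, n = 4 and 2), or 0.61 ± 0.15 on the log2 scale (SE, edgeR adjusted p = 0.0272, Benjamini-Hochberg), a call that was not recomputed under other settings. Mrps12, the decoding-site protein of the small subunit, had -0.20 ± 0.17 (SE) and was not called. Partners of the 3 members called gave 1 value, that of Cyb5rl beside Mrpl37, with a log2 fold change of 0.13 ± 0.18 (SE), also not called.

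Other genes of the mitochondrial ribosome and its supply were called about as often as genes in general. In 4 lists that hold 61 tested genes 6 were called, or 9.84%, beside 11.4% of all genes. Of 5 subunit genes without an Mrp symbol (Dap3, Ptcd3, Chchd1, Aurkaip1 and Gadd45gip1) 1 was called, and no other had an unadjusted p under 0.05. Ptcd3, a pentatricopeptide repeat protein of the small subunit that sits at the entry of the mRNA, had 134, 133, 126 and 126 CPM in Cmtr1 cKO 1 to 4, against 92.5 and 90.0 CPM in the controls. All 4 values lay above both controls, at 0.51 ± 0.07 on the log2 scale (SE, edgeR adjusted p = 0.0013, Benjamini-Hochberg), and the call held with each library left out (0.49 to 0.54). Dap3 and Gadd45gip1 had 0.06 and 0.18, Aurkaip1 and Chchd1 -0.15 and -0.19.

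Of 29 assembly and rRNA modification factors 1 was higher and 1 lower, with a median log2 fold change of 0.01. Nsun4, a methyltransferase that works on the small-subunit rRNA and joins the subunits, was higher (0.39 ± 0.09, SE), and Mrm2, a 2'-O-methyltransferase of the large-subunit rRNA, was lower (-0.64 ± 0.18, SE). Their edgeR adjusted p were 0.0247 and 0.0441 (Benjamini-Hochberg). Of 15 translation factors 2 were called, both higher, and 3 had an unadjusted p under 0.05, with a median of 0.09. These were Gfm2, the factor that helps split the ribosome after termination (0.46 ± 0.11, SE), and Guf1, a translational GTPase (0.30 ± 0.08, SE), with edgeR adjusted p = 0.0231 and 0.0435 (Benjamini-Hochberg). Tufm, the elongation factor of the organelle, had -0.12. Of 12 genes of mitochondrial transcription and DNA maintenance 1 was called. Tfb2m, the transcription initiation factor, was higher (0.48 ± 0.14, SE, edgeR adjusted p = 0.0435, Benjamini-Hochberg). None of these 5 was called by edgeR with either control or with Cmtr1 cKO 1, 2 or 3 left out, except Gfm2 without Cmtr1 cKO 1 (adjusted p = 0.0457, Benjamini-Hochberg). DESeq2 did not call Guf1, Mrm2 or Tfb2m (adjusted p = 0.0602, 0.0894 and 0.0592, Benjamini-Hochberg), and on unstranded counts edgeR did not call Guf1 or Tfb2m (0.0638 and 0.0548). None was called with reads outside exons in the fit, where their log2 fold changes were 0.31 for Nsun4, -0.38 for Mrm2, 0.15 for Gfm2, 0.16 for Guf1 and 0.29 for Tfb2m.

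Both rRNAs of the mitochondrial ribosome were lower in Cmtr1 cKO libraries. The small-subunit rRNA mt-Rnr1 had 2403, 2176, 3134 and 3015 CPM in Cmtr1 cKO 1 to 4, against 4278 and 4277 CPM in the controls. The large-subunit rRNA mt-Rnr2 had 18676, 17353, 22008 and 22918 CPM in Cmtr1 cKO 1 to 4, against 31478 and 33154 CPM in the controls. Each was lower in every Cmtr1 cKO library than in either control, at log2 fold changes of -0.67 ± 0.16 and -0.68 ± 0.19 (SE, edgeR adjusted p = 0.0241 and 0.0398, Benjamini-Hochberg). Both RNAs are targets of the depletion step of the library kit, so their levels are what depletion left. With either control or Cmtr1 cKO 1 or 2 left out both calls ended, without Cmtr1 cKO 3 that of mt-Rnr2 ended, and with the covariate they were -0.36 and -0.39 and not called. Whether depletion differed between libraries was not tested.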

How the data were processed

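The deposited values are raw counts of reads per gene from the authors, in the layout of STAR's gene table, with 1 unstranded and 2 stranded columns. The submitters' processing notes name STAR (2.5.2b) and edgeR with the builds mm10 and GRCm38, the counting annotation being not given in the sources used here. Libraries were made with a TruSeq kit and Ribozero Gold depletion, per the labels' protocols. Rows that name no gene held 52.1% to 62.0% of reads and were left out. The stranded column with 5.57 to 22.7 times the reads of the other was used, the ratio being 5.57 in Cmtr1 cKO 3 and at least 18.7 elsewhere. Identifiers matched GENCODE vM21 for 46488 of 46983 genes (98.9%), which gave symbols, coordinates and exon lengths. STAR counts a read only if it maps once and falls on the exons of 1 gene, so shared exons lose reads.

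Genes were kept by filterByExpr (12748 genes), scaled by TMM and tested for genotype alone with glmQLFit (robust) and glmQLFTest of edgeR 4.0.16 in R 4.3.3, with Benjamini-Hochberg adjustment and a threshold of 0.05. The code was tested on simulated counts. The SE is the size of the log2 fold change over the square root of F, and 95% intervals use the fit's degrees of freedom. The common dispersion was 0.00919. The cytosolic list leaves out 19 symbols of S6 kinases, binding partners and -like paralogs. Other lists held 5, 29, 15, 12 and 2 genes found in the files, and Ict1 is the older name of the member Mrpl58.

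Members, lists and alternatives were chosen with earlier results of these data known. Members were given with values if called, among the 5 highest or lowest log2 fold changes or the 3 highest or lowest control levels per kilobase in their subunit, and with every library's value if among the 12 smallest p. Alternatives were DESeq2 1.42.0, its size factors, no filter, unstranded counts, protein-coding genes alone, TMM without cytosolic ribosomal protein genes, reads outside exons as a covariate, sample quality weights in limma 3.58.1, a replicate block, each library left out, and subunits by place in the ribosome.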

Additional observations from a re-analysis of the deposited data

How the results depend on the processing

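Of the 77 tested members, 0 to 7 were called lower and 0 to 6 higher with 1 library left out, the highest counts coming without Cmtr1 cKO 4 and none being called without control 1 or control 2. In these fits the median log2 fold change was -0.0797 to 0.00278 over all members, -0.11 to 0.01 for the large and -0.0836 to 0.0455 for the small subunit, the last highest without control 2. With no filter 2 were lower and 4 higher, and on protein-coding genes alone 4 were higher. With reads outside exons as a covariate 0 were lower and 6 higher, and the medians were 0.15 (all), 0.17 (large) and 0.092 (small). With sample quality weights 6 were lower and 7 higher. The replicate block gave 16 lower and 6 higher, and a small-subunit median of -0.11. The titles number the libraries and name no pairing. Deviations of same-numbered libraries from their group mean had r = 0.138 for replicate 1 and -0.152 for replicate 2. These values cannot decide whether the numbers mark a pairing, because the deviations of the 2 controls are equal and opposite. The block gave 4842 calls over all genes, against 1457 without it, and leaves 1 residual degree of freedom. Background shares moved too, to 24.9% with weights, 38.0% with the block and 30.8% without Cmtr1 cKO 4, and to 5.22% with the covariate, 1.95% without control 1 and 1.48% without control 2.

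Only some members, mostly those named above, were followed singly through the settings, and signs turned for 8 of these. Among the 8 were Mrps33, Mrps24 and Mrpl36, whose estimates of -0.32, -0.25 and -0.25 were among the 5 lowest of their subunit. Signs of the other members were not followed, so 8 is a lower bound for the 77 tested. Mrpl24 had 0.15 on unstranded counts and -0.0671 to 0.0152 with 1 library left out. With the covariate Mrpl36 had 0.17, Mrps24 0.092, Mrps33 0.17 and Mrps36 0.20. Mrpl17 and Mrpl48 had -0.0347 and -0.0356 with weights, and -0.11 and -0.13 with the block. With 1 library left out Mrpl17 had -0.0648 to 0.11, Mrpl48 -0.0699 to 0.10 and Mrps36 -0.20 to 0.0512. Mrpl49 had -0.0156 with the block. The cause was not tested. In every setting listed at least 55 of the 77 cytosolic genes were called lower, with medians of -1.13 to -0.60. With 4 and 2 libraries, standard errors of members were 0.07 to 0.22, which bounds the changes that could be called.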
